A study of Canis lupus familiaris with 13 samples.

Results

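Transcripts of the machinery that controls passage through the G1 phase of the cell cycle were described in 13 primary canine soft tissue sarcomas, sampled before any treatment. The set held the D-type cyclins CCND1, CCND2 and CCND3, the kinases CDK4 and CDK6, the retinoblastoma gene RB1, the transcription factors E2F1 and E2F3 and the kinase inhibitors CDKN2A and CDKN1B. Probe sets, the groups of short probes that read a transcript on the Affymetrix canine array, were taken by the gene symbol of the platform annotation. This gave 13 probe sets for 9 of the 10 genes, among 42924 probe sets and 15115 named genes, and CDKN2A was not matched and is not analysed here. All 13 probe sets were tested, with no filter on low values. Of the tumours 5 were labelled metastatic and 8 non-metastatic, the latter free of metastasis over 1 year or longer. The labels used here give no age, strain or dog of origin, so p-values reflect only how these samples vary, which may be technical.

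In G1 the D-type cyclins bind CDK4 or CDK6, and the active kinases phosphorylate the RB protein. Phosphorylated RB releases E2F factors, which switch on genes of DNA synthesis and mitosis. Inhibitors of the INK4 family, such as the products of CDKN2A and CDKN2C, block the cyclin D kinases, while those of the CIP/KIP family, such as the product of CDKN1B, mainly restrain the cyclin E and cyclin A kinases. The 3 D-type cyclins can stand in for each other in part, and CDK4, RB1 and CDKN2A are among the genes often altered in sarcomas.

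Values were log2 intensities, on which a difference of 1 is a doubling, and array medians lay between 6.71 and 6.94. The labels name no batch. From the signal of poly-A spike-in controls, which are added before labelling, the arrays were inferred to fall into labelling batch A (the metastatic tumours with 4 non-metastatic ones, numbers 5 to 8), batch B (numbers 1, 3 and 4 of the non-metastatic group) and batch C (its number 2). Comparisons within batch A are therefore given beside those over all samples. Probe sets without their target ran from 2.63 to 7.16, with a median of 4.45. Values below 7.16 are not told apart from that range. The biopsies were checked against mesenchymal markers, among them VIM, at 13.32 ± 0.39 (SD, n = 5) in metastatic and 13.59 ± 0.08 (SD, n = 8) in non-metastatic tumours. All 11 measured sarcoma and mesenchymal markers had means above 7.16, against 0 of 4 epithelial ones. Single tumours departed from these means, with LUM down to 5.75 and KRT8 up to 8.84 in non-metastatic tumours.

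CCND3 fell and CCND1 fell narrowly past the threshold in metastatic tumours, while CCND2 and CDK6 had higher means there without passing. These 2 falls were the calls among the 9 genes, each read at its probe set of highest mean, and 0 of the 9 rose (limma, adjusted p under 0.05). Over all probe sets 4.9% were called, 3.34% as lower and 1.56% as higher in metastatic tumours. At an unadjusted p under 0.05, 5 of the 9 genes differed by limma, as did 23.7% of all probe sets, and 5 by exact permutation, as did 22.9% of all probe sets. The median difference of the 9 genes was 0.22, against 0.05 over all probe sets. Within batch A, where 2.78% of probe sets were called (2.2% as lower and 0.578% as higher), CCND3 was the only one of the 9 to pass. Without batch B, where 0.482% of probe sets were called, 0 of the 9 passed by limma. There 5 of them were at an unadjusted p under 0.05 by limma (14.4% of all probe sets) and 4 by exact permutation (13.7%).

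**Figure D1:**
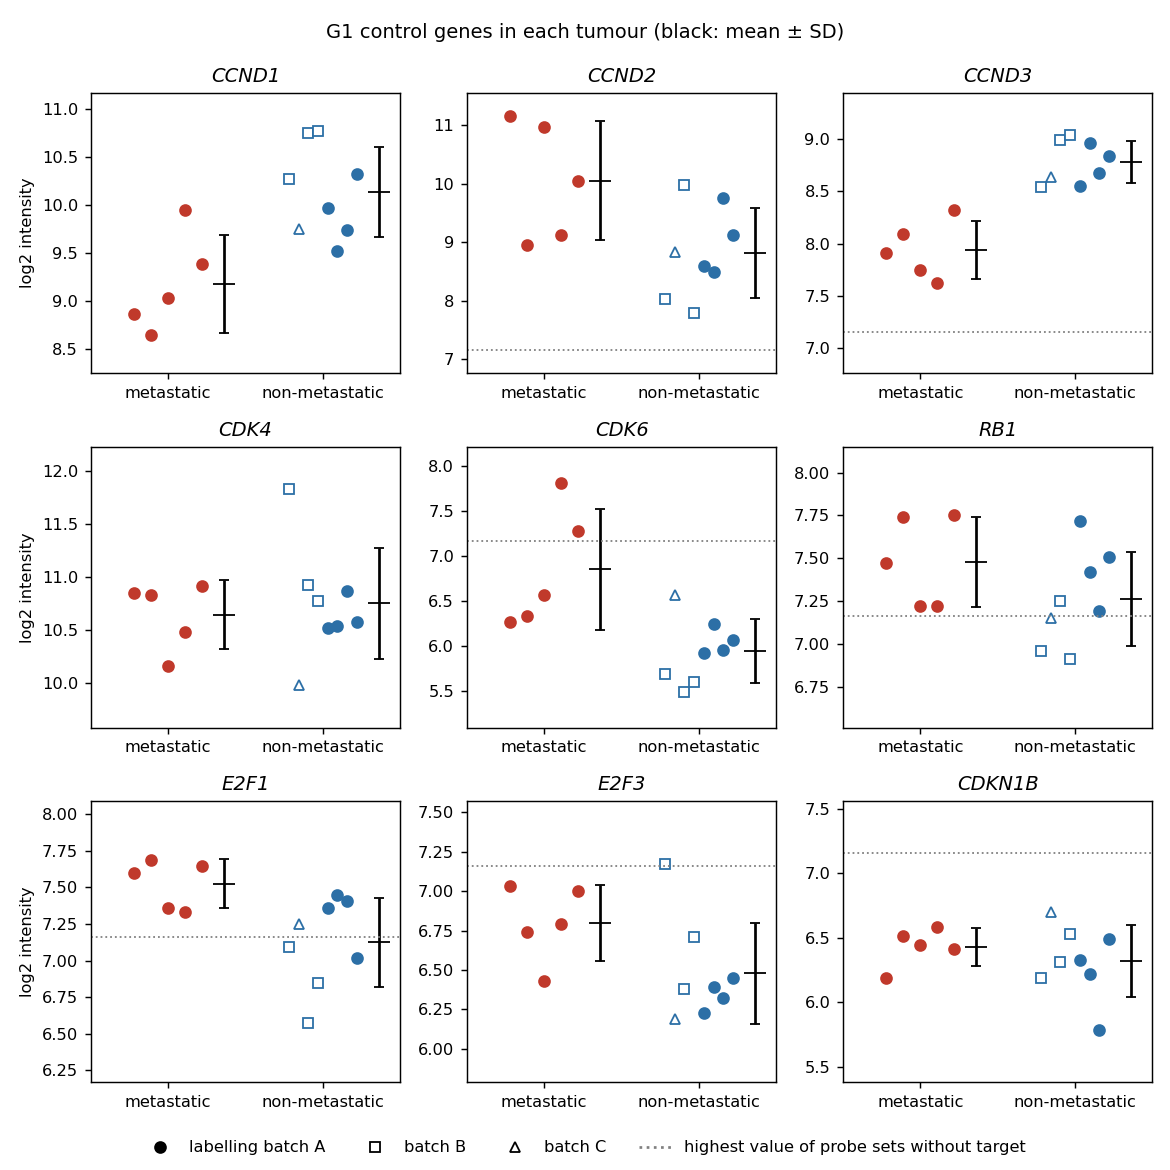
Log2 intensity of 9 G1 control genes in each tumour, at the probe set of highest mean per gene, in 5 metastatic (red) and 8 non-metastatic (blue) tumours. Marker shapes give the labelling batch, black bars the group mean ± SD and the dotted line the upper end of the range without target (7.16). For CCND3 every metastatic tumour lies below every non-metastatic one, while the groups overlap for the other 8 genes.

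CCND3, the D-type cyclin best known from lymphocytes and differentiating cells, separated the groups. Its values were 7.91, 8.09, 7.75, 7.62 and 8.32 in metastatic replicates 1 to 5. In the non-metastatic tumours they were 8.54, 8.64, 8.99, 9.04, 8.55, 8.96, 8.67 and 8.84 in replicates 1 to 8. The highest metastatic tumour thus lay below the lowest non-metastatic one, a separation that 1.45% of all probe sets showed in this direction, 1.18% in the other and 2.63% in either. The mean was 7.94 ± 0.28 (SD, n = 5) against 8.78 ± 0.20 (SD, n = 8), and CCND3 fell by 0.84 ± 0.14 (SE, limma adjusted p = 0.00671), a change of 1.79-fold. Within batch A it fell by 0.82 (limma adjusted p = 0.031), again without overlap, as for 4.94% of probe sets. The non-metastatic tumours of batches A and B differed by -0.10 (A minus B, limma adjusted p = 0.694), a comparison in which 21.7% of all probe sets were called. Without batch B the call was lost (-0.79, limma adjusted p = 0.0527). It was kept in all 13 fits that left out 1 sample of the whole set. Within batch A it was lost in 6 of 9 such fits, those without metastatic replicate 1 or 3 or non-metastatic replicate 5, 6, 7 or 8, with differences of -0.91 to -0.74 over the 9 fits and an adjusted p of up to 0.111. CCND3 has 1 probe set on the array, so no second measurement of it was at hand.

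CCND1, the D-type cyclin of most mesenchymal and epithelial cells, also fell in metastatic tumours, but the groups overlapped. Its metastatic values were 8.87, 8.65, 9.04, 9.95 and 9.39, and its non-metastatic values 10.27, 9.75, 10.75, 10.77, 9.97, 9.52, 9.74 and 10.32, in the order of the replicate numbers. Of the 5 metastatic tumours, 4 lay below every non-metastatic one, and replicate 4 lay among them. CCND1 fell by 0.96 ± 0.26 (SE, limma adjusted p = 0.0476), from 10.14 ± 0.47 (SD, n = 8) to 9.18 ± 0.51 (SD, n = 5).

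This call was at the edge of the threshold. The other CCND1 probe set differed by -1.34 and did not pass (limma adjusted p = 0.0505), with values of 6.89 to 9.21 in metastatic and 8.53 to 10.44 in non-metastatic tumours. The first was lost in 9 of 13 fits without 1 sample, namely without metastatic replicate 1, 2, 3 or 5 or non-metastatic replicate 1, 3, 4, 5 or 8, with an adjusted p of up to 0.114. Within batch A the differences were -0.71 and -1.09 and neither passed (limma adjusted p = 0.19 and 0.172). The 3 non-metastatic tumours of batch B averaged 10.60 and the 4 of batch A 9.89. This difference of -0.71 (A minus B) did not pass (limma adjusted p = 0.0542), while that of the other probe set, -0.87, did (limma adjusted p = 0.0382). The gap between the 3′ and 5′ probe sets of ACTB, larger in degraded RNA, moved along with the batch. It was 0.39 to 0.88 in batch B, 1.23 to 2.24 in non-metastatic tumours of batch A and 3.14 in the tumour of batch C. In metastatic tumours it was 1.40 to 2.87, with a mean of 1.96 against 1.47 in all non-metastatic ones. The spike-in controls, which are not tumour RNA, also had a large 3′ minus 5′ value in the array of batch C (3.54). Whether the ACTB gap came from RNA quality or from labelling was not tested. With the ACTB gap as a covariate CCND1 differed by -0.75 (limma adjusted p = 0.0652) at its first probe set and by -0.99 (limma adjusted p = 0.0361) at the other.

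CCND2, the D-type cyclin that responds to growth factors and MYC in many cells, varied most among the tumours. Its metastatic values were 11.16, 8.96, 10.98, 9.12 and 10.05, and its non-metastatic values 8.04, 8.83, 9.98, 7.79, 8.60, 8.49, 9.76 and 9.12. Metastatic replicates 1, 3 and 5 lay above every non-metastatic tumour, and replicates 2 and 4 lay inside the non-metastatic range. The SD was 1.02 in metastatic and 0.77 in non-metastatic tumours, where the median over all probe sets was 0.25 and 0.35. The difference of 1.23 ± 0.44 (SE, 95% interval 0.28 to 2.18) did not pass (limma adjusted p = 0.121), and it was 1.06 within batch A (limma adjusted p = 0.279).

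**Figure D2:**
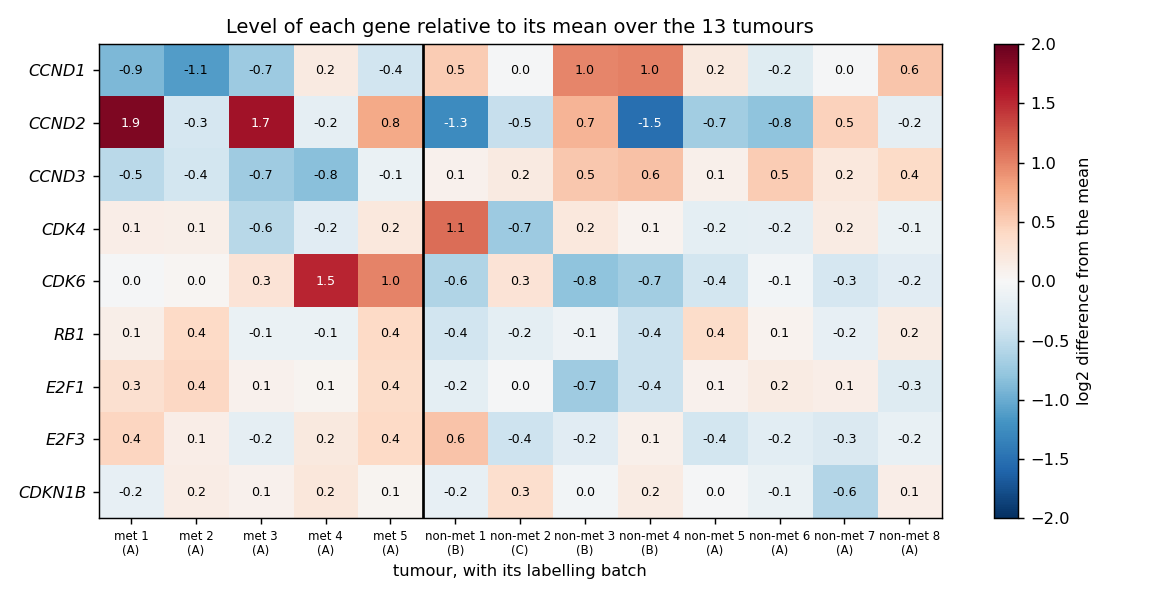
Level of each of the 9 genes in each tumour relative to the gene's own mean over the 13 tumours, in log2 units, with red above and blue below the mean and the labelling batch in brackets. CCND2 is highest in metastatic replicates 1 and 3 and CDK6 in metastatic replicates 4 and 5, and the CCND3 row is below its mean in all 5 metastatic tumours.

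The D-type cyclins were also set against each other within each tumour. CCND2 minus CCND1, set relative to its median over the 13 tumours, was 3.12, 1.14, 2.77, 0 and 1.49 in the metastatic tumours and ran from -2.15 to 0.85 in the non-metastatic ones. In 4 of 5 metastatic tumours CCND2 was thus higher relative to CCND1 than in any non-metastatic tumour, and replicate 4 lay inside their range. CCND2 minus CCND3 likewise exceeded every non-metastatic tumour in 4 of 5 metastatic ones, with replicate 2 as the exception. CCND1 minus CCND3 ran from -0.73 to 1.04 in metastatic and from -0.73 to 0.47 in non-metastatic tumours, and only metastatic replicate 4 lay above the latter range. These values compare samples only, since different probe sets cannot be set against each other as amounts. They restate the values of the single genes, whose differences were already seen, and are no further test. Other pairs of probe sets were not counted beside them.

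CDK4 and CDK6, the kinases that the D-type cyclins activate, differed from each other in pattern. CDK4 values were 10.85, 10.83, 10.16, 10.48 and 10.92 in metastatic tumours and ran from 9.98 to 11.83, with a median of 10.68, in non-metastatic ones. Both extremes belonged to the latter, replicate 1 at 11.83 and replicate 2 at 9.98. CDK4 differed by -0.11, with a 95% interval of -0.63 to 0.42 (limma adjusted p = 0.812), and the other probe set gave 0.07, with -0.38 to 0.53 (limma adjusted p = 0.847). The sign of the first turned within batch A, to 0.02, and with quantile normalization, to 0.11, so no direction can be given for CDK4.

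CDK6 values were 6.26, 6.33, 6.57, 7.81 and 7.28 in the metastatic tumours. The non-metastatic values were 5.69, 6.57, 5.49, 5.60, 5.92, 6.24, 5.95 and 6.06. Replicates 4 and 5 of the metastatic group were the 2 values above 7.16, so that most CDK6 values were not told apart from probe sets without target. The difference of 0.91 ± 0.26 (SE, 95% interval 0.35 to 1.47) did not pass (limma adjusted p = 0.0602). It passed without non-metastatic replicate 2 (limma adjusted p = 0.0282), the highest non-metastatic tumour and the single array of batch C. In that fit 4478 of all probe sets were called, against 2104 with all samples. Within batch A the difference was 0.81 (limma adjusted p = 0.193) and the groups did not overlap, as for 4.39% of probe sets in this direction. The non-metastatic tumours of batch A were 0.45 above those of batch B (limma adjusted p = 0.0392). The other CDK6 probe set read 1.30 to 2.91 in all 13 tumours, near or below the lowest value (2.63) of probe sets without target, and differed by -0.14.

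**Figure D3:**
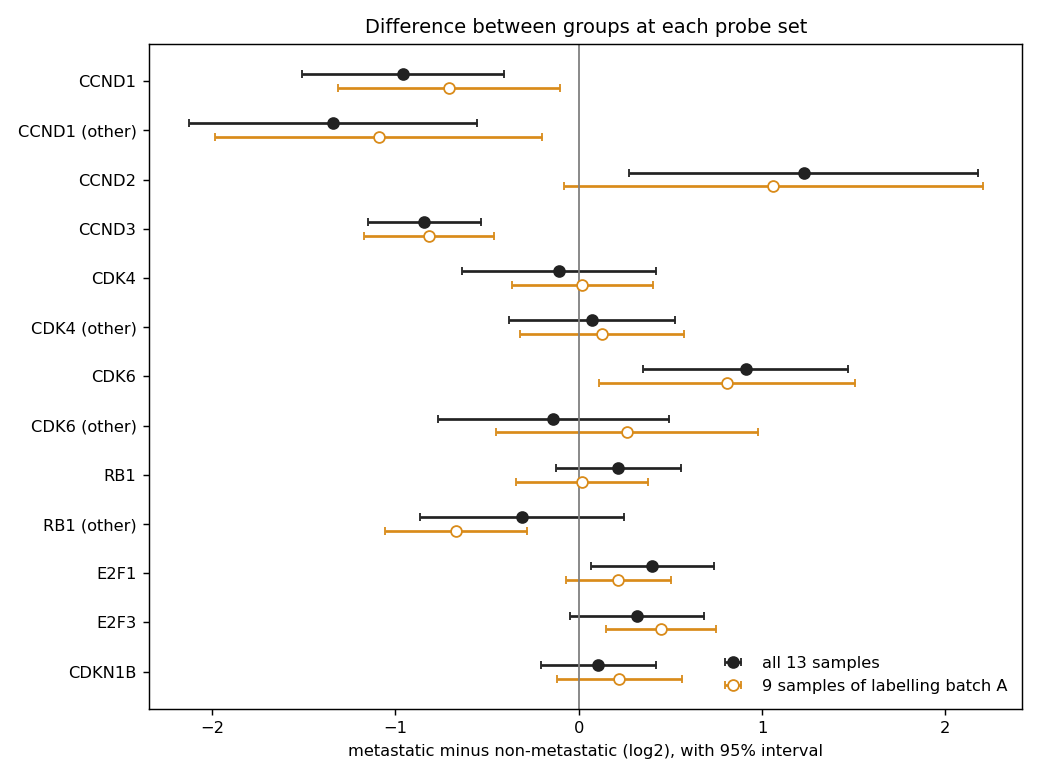
Metastatic minus non-metastatic difference in log2 intensity with its 95% interval at each of the 13 probe sets, over all 13 samples (black) and within labelling batch A (orange, 9 samples); "other" marks a gene's second probe set. The intervals are not adjusted for the number of probe sets, and over all 13 samples the intervals of CCND3 and of both CCND1 probe sets lie wholly below 0, while those of CCND2, CDK6 and E2F1 lie wholly above it.

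RB1, the pocket protein that holds E2F factors in check, did not pass at either of its probe sets. Its values were 7.47, 7.74, 7.22, 7.22 and 7.75 in metastatic tumours and ran from 6.91 to 7.72, with a median of 7.22, in non-metastatic ones. The difference was 0.22 (95% interval -0.13 to 0.56, limma adjusted p = 0.412) and 0.02 within batch A. The other probe set, below 7.16 in all 13 tumours, had the opposite sign, at -0.31 (95% interval -0.86 to 0.25, limma adjusted p = 0.475). Within batch A it was -0.67 (limma adjusted p = 0.0753), and every metastatic tumour (4.94 to 5.67) lay below the non-metastatic ones (5.83 to 6.27), as for 4.94% of probe sets, at values not told apart from probe sets without target.

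E2F1, an activating E2F that is itself an E2F target, was 7.60, 7.69, 7.36, 7.33 and 7.65 in the metastatic tumours. In the non-metastatic tumours it was 7.09, 7.25, 6.57, 6.85, 7.36, 7.45, 7.41 and 7.02. Metastatic replicates 1, 2 and 5 lay above every non-metastatic tumour. The difference of 0.40 ± 0.16 (SE, 95% interval 0.07 to 0.74) did not pass (limma adjusted p = 0.148), and it was 0.22 within batch A (limma adjusted p = 0.377). E2F3, another activating E2F, ran from 6.43 to 7.03 in metastatic and from 6.19 to 7.17 in non-metastatic tumours. It differed by 0.32 (95% interval -0.05 to 0.68, limma adjusted p = 0.266) and by 0.45 within batch A (limma adjusted p = 0.108). Only non-metastatic replicate 1 exceeded 7.16.

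CDKN1B, which encodes the inhibitor p27, stayed below 7.16 in all 13 tumours. It ran from 6.19 to 6.58 in metastatic and from 5.78 to 6.70 in non-metastatic tumours. CDKN1B differed by 0.11, with a 95% interval of -0.21 to 0.42 (limma adjusted p = 0.671), and the difference was 0.22 within batch A.

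Among 35 other measured genes of the G1 to S control, of 39 listed, 2 rose, 2 fell and 31 did not pass. The median difference of the 35 was -0.03. MNAT1, counted among the 31, passed at its other probe set (0.68, limma adjusted p = 0.0207). CDKN2C, the INK4 inhibitor p18 and itself responsive to E2F, rose by 1.99 ± 0.44 (SE, limma adjusted p = 0.0221). It was 10.72, 11.97, 9.89, 9.59 and 9.91 in the metastatic tumours and 7.18 to 9.70 in the non-metastatic ones, so only replicate 4 overlapped, with non-metastatic replicate 5. Its other probe set also passed (1.86). Within batch A CDKN2C did not pass (1.70, limma adjusted p = 0.117), and it lost its call without metastatic replicate 1 (limma adjusted p = 0.0609). LIN9, a subunit of the MuvB complex that works with E2F and MYB factors, rose by 1.21 ± 0.24 (SE, limma adjusted p = 0.0141) and by 0.87 within batch A (limma adjusted p = 0.049). Its non-metastatic mean of 6.14 was below 7.16, and its other probe set differed by -0.10.

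The 2 falls were those of a pocket protein and of a ubiquitin ligase subunit. RBL2, the RB relative p130 that holds resting cells out of the cycle, fell by 1.42 ± 0.20 (SE, limma adjusted p = 0.00311). Its values were 8.0, 8.57, 8.88, 8.68 and 8.03 in the metastatic and 9.12 to 10.28 in the non-metastatic tumours, without overlap. All 4 RBL2 probe sets were negative, and 1 of the other 3 passed (-1.14). Its metastatic values, 6.60 to 7.16, did not exceed 7.16, and non-metastatic replicate 2 (6.79) lay among them. FBXW7, which targets cyclin E and MYC for destruction, fell by 1.70 ± 0.26 (SE, limma adjusted p = 0.00426). It was 7.09 to 7.61 in metastatic and 7.75 to 9.60 in non-metastatic tumours, again without overlap, and of the other 2 probe sets 1 passed (-1.40) and 1 differed by -0.08. At the FBXW7 probe set with -1.40 the metastatic values were 5.88 to 6.46, below 7.16, and non-metastatic replicate 2 (6.10) lay among them. Within batch A RBL2 fell by 1.59 and FBXW7 by 1.86 (limma adjusted p = 0.0102 and 0.00211). Without batch B RBL2 was the only 1 of the 35 genes to pass, and the calls of FBXW7 (limma adjusted p = 0.0586), LIN9 (0.0612) and CDKN2C (0.14) were lost.

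**Figure D4:**
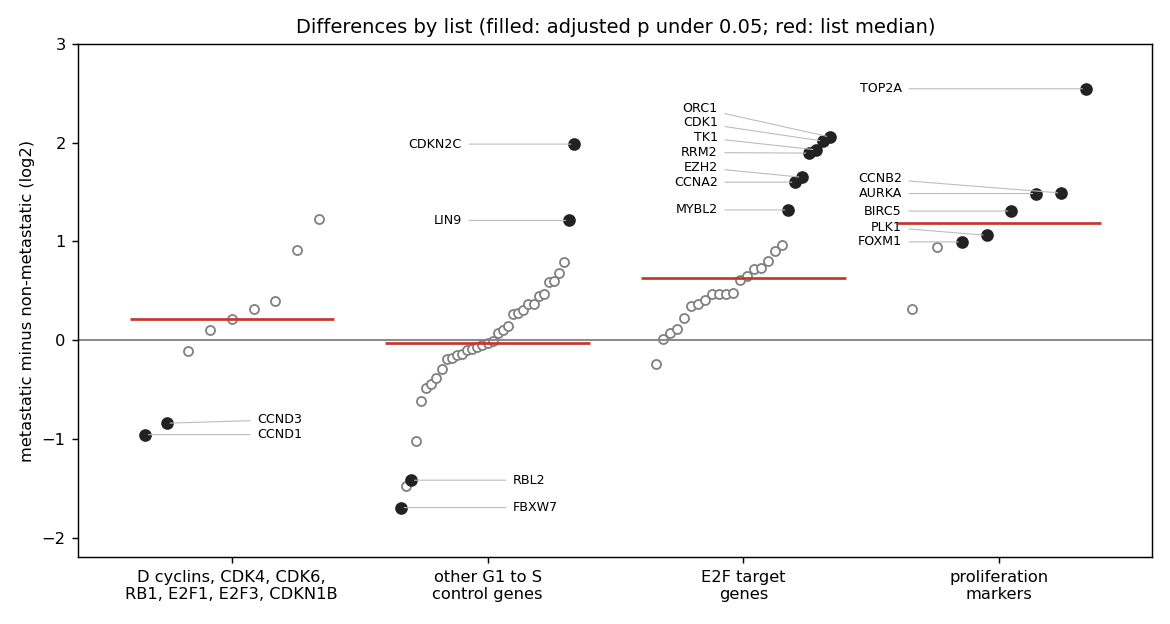
Metastatic minus non-metastatic difference (log2) of each measured gene, at its probe set of highest mean, in the set described here and in 3 further lists; filled points passed (limma adjusted p under 0.05) and are named, and red lines are list medians. The medians are 0.22, -0.03, 0.63 and 1.19 from left to right.

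Other controls of the cyclin E and cyclin D kinases did not pass. CDKN1A, the CIP/KIP inhibitor p21, was 8.41, 7.74, 10.36, 11.11 and 9.11 in metastatic and 9.66 to 11.94 in non-metastatic tumours, a difference of -1.48 ± 0.51 (SE, limma adjusted p = 0.109). Metastatic replicates 1, 2 and 5 lay below every non-metastatic tumour, and all 3 CDKN1A probe sets were negative. CCNE2, a cyclin partner of CDK2, was 8.64 and 9.13 in metastatic replicates 2 and 5 and at most 7.53 in the other 11 tumours, and its difference of 0.79 did not pass (limma adjusted p = 0.167). CDK2 differed by 0.47 (limma adjusted p = 0.0796) and CDKN2B, the INK4 inhibitor p15, by -0.49 (limma adjusted p = 0.155). CKS1B, a cofactor in the destruction of p27, differed by -1.02 over all samples (limma adjusted p = 0.0769) and fell within batch A (-0.88, limma adjusted p = 0.0227).

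Of 26 measured textbook targets of E2F factors, 7 rose, 0 fell and 19 did not pass, where 1.56% of all probe sets rose. Positive differences were found for 25 of them, against 55.1% of all probe sets, and the median was 0.63 against 0.05. CDK1, CCNA2 and TK1, which drive mitosis, S phase and thymidine salvage, rose by 2.02, 1.60 and 1.93 (limma adjusted p = 0.00262, 0.00665 and 0.00311). RRM2, ORC1 and EZH2, of nucleotide synthesis, origin recognition and chromatin repression, rose by 1.89, 2.06 and 1.65 (limma adjusted p = 0.00444, 0.0141 and 0.016), and MYBL2 was the seventh. The non-metastatic means of ORC1 (5.74), TK1 (6.52) and CCNA2 (6.69) lay below 7.16, so the sizes of these rises are uncertain. ORC1 was also below 7.16 in metastatic replicates 3 (6.89) and 4 (6.51). Those of CDK1 (7.76), RRM2 (7.94), EZH2 (7.34) and MYBL2 (7.84) lay above it. Of the 26 genes, 7 had a median at or below 7.16. CDC6 did not pass at its probe set of highest mean (limma adjusted p = 0.0537). Its other 2 probe sets did (0.72 and 1.53, limma adjusted p = 0.0333 and 0.0195), with all their non-metastatic values below 7.16. Within batch A 4 of the 26 rose (CDK1, CCNA2, TK1 and RRM2) and the median was 0.59. Without batch B 3 rose (CDK1, TK1 and RRM2), and with quantile normalization 11.

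All 8 measured proliferation markers were positive, and the median was 1.19. Of them 6 rose (TOP2A, PLK1, CCNB2, AURKA, BIRC5 and FOXM1), as did 1.56% of all probe sets. This count rested on single libraries and on batch B. It was 2 without metastatic replicate 5 (TOP2A and PLK1), 3 without metastatic replicate 1 or 2 or non-metastatic replicate 3, 4 without non-metastatic replicate 4 and 5 or 6 in the other fits without 1 sample. Within batch A 2 rose (PLK1 and FOXM1), with a median of 1.17. Without batch B 0 passed by limma. There 7 were at an unadjusted p under 0.05 by limma (14.4% of all probe sets) and 6 by exact permutation (13.7%). The non-metastatic means of PLK1 (6.72) and AURKA (6.69) lay below 7.16, so the sizes of their differences are uncertain. Those of TOP2A, CCNB2, BIRC5 and FOXM1 lay above it. UBE2C did not pass at its probe set of highest mean (limma adjusted p = 0.314). Of its other probe sets 1 passed (1.83, limma adjusted p = 0.00311), with all its non-metastatic values below 7.16. The mean level of the proliferation list ran from 7.89 to 9.18 in metastatic and from 7.06 to 7.83 in non-metastatic tumours. These ranges did not overlap. Between the groups the list was higher where CCND3 was lower, which is no statement about single tumours within a group. The part of this list in the CCND3 result was not tested. In bulk tissue, fewer cells with a transcript and less transcript per cell cannot be told apart.

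Markers of other cells that the biopsies could hold were read in the same comparison. Of 8 macrophage, 10 lymphocyte, 6 endothelial and 6 skeletal muscle markers measured, 0 passed by limma. At an unadjusted p under 0.05 there were 0, 2, 0 and 2 by limma, as for 23.7% of all probe sets. By exact permutation there were 0, 3, 0 and 0, as for 22.9%. The median differences of these lists were -0.36, 0.21, 0.05 and 0.59, and within batch A -0.02, 0.09, -0.11 and 0.64. All 6 muscle markers were positive, but without metastatic replicate 5 only 3 were, with a median of 0.02. Of the 10 lymphocyte and 6 muscle markers, 2 and 2 had means above 7.16. The mean levels overlapped between groups, at 7.33 to 9.22 against 7.77 to 9.20 for macrophages, 6.06 to 6.60 against 6.12 to 6.70 for lymphocytes, 7.78 to 8.98 against 7.50 to 9.79 for endothelium and 6.46 to 9.29 against 6.06 to 7.12 for muscle. Epithelial markers lay at 3.91 to 5.12 against 4.49 to 6.13, and KRT8 was called as lower (limma adjusted p = 0.0468). Its metastatic values, 0.66 to 2.28, and 6 of its 8 non-metastatic values lay below 7.16, so no size is given. Non-metastatic replicates 7 and 8 lay above it, at 7.46 and 8.84. The KRT8 call was lost within batch A (limma adjusted p = 0.0719) and in 10 of 13 fits without 1 sample, all but those without non-metastatic replicate 2, 6 or 8. Among mesenchymal markers DCN fell by 1.28 (limma adjusted p = 0.00429, and 0.0527 without batch B), and the part of these markers in the cyclin results was not tested.

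The transcripts whose profile over the 13 tumours was most like that of CCND3 were PNP (Pearson r = 0.94), TSPAN9 (r = 0.94) and ABCA8 (r = 0.93). For CCND1 they were OAZ1 (r = 0.95), AVPI1 (r = 0.95) and BABAM1 (r = 0.94). These values describe 13 points that share the group difference and the labelling batches.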

How the data were processed

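Total RNA of 13 tumours was labelled by 1-cycle 3′ in vitro transcription, per the labels' protocols. The authors deposited 1 table of processed values, read here as log2 intensities from their range of 0 to 14.33; its software and normalization method are not stated in these sources. After 111 Affymetrix controls were left out, 42924 probe sets were fitted with limma 3.58.1 (R 4.3.3; lmFit, eBayes, group as the only term, two-sided, Benjamini-Hochberg over all probe sets, threshold 0.05). The fit was first tested on simulated data. Errors are SE of differences and SD of group means.

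Platform annotation named 29264 probe sets with 1 symbol, 439 with several and 13332 with none. Probe sets with several symbols were not used and held 0 of the members. Probe sets with the suffix _s_at or _x_at can also read related transcripts. A gene is read at its probe set of highest mean, with others given beside it. Labelling batches came from poly-A spike-in probe sets: a 3′ mean below 6 defined batch B, and a 3′ minus 5′ value above 2 batch C. The range of probe sets without target is that of 36 spike-in probe sets in the 3 arrays of batch B.

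Named genes were all members, up to 6 called genes of each list, and the 3 genes closest to each called member. Other genes (CDKN1A, CCNE2, CDK2, CDKN2B, CKS1B, MNAT1, CDC6, UBE2C, MYBL2, VIM, MTAP, DMRTA1, ELAVL2, OS9, MARCHF9) were chosen after their values were seen. The members and lists were chosen with earlier results of these data known. Permutation tests enumerated all 1287 splits (126 within batch A) in Python 3.11.15 (scipy 1.17.1, numpy 2.4.6); tables used pandas 2.3.3 and figures matplotlib 3.10.9. The number of arrays limits the precision. Alternatives covered the samples used, batch and ACTB gap terms, normalization, variance model, dim probe sets, values of 0, probe sets per gene and replicates.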

Additional observations from a re-analysis of the deposited data

Results flagged for a closer look

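CDK4 in non-metastatic replicate 1 was 11.30 at the gene's second probe set, against 10.59 in the next highest of the 8 non-metastatic tumours. It stood apart by 0.55 of the group's range, where the 95% limit of Dixon's test for 8 samples is 0.526. The first CDK4 probe set was also highest in that tumour, at 11.83, without passing this limit. Of 26 groups of values examined (13 probe sets in both groups), 1 stood apart, and chance gives about 1 in 20.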

How the results depend on the processing

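The number of member genes past the threshold was 2 of 9 (limma). It was 1 within batch A, with labelling batch as a block, with the ACTB covariate and with quantile normalization (each time CCND3), and 1 to 3 in the fits without 1 sample. Without batch B, an alternative chosen after seeing the data, it was 0, with 5 at an unadjusted p under 0.05 (14.4% of all probe sets) and 4 by exact permutation (13.7%). With only probe sets at or above the median level, 6 of the 9 genes were tested. Over all probe sets 2104 were called, 1192 within batch A, 207 without batch B, 1367 with the ACTB covariate, and 856 to 4478 without 1 sample, the highest without non-metastatic replicate 2.

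Same-numbered samples were not shown to be paired, as their deviations correlated by -0.01 to 0.08 and 1 of 5 metastatic samples correlated best with its own number. With the replicate block on the 10 samples numbered 1 to 5, 733 probe sets and 1 member gene (CCND1) passed, against 1185 and 1 (CCND3) for these samples with no block. With the block CCND3 differed by -0.81 (adjusted p = 0.0915) and RBL2 by -1.32 (adjusted p = 0.0573).

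Signs turned for differences that never passed. CDK4 (-0.11) became 0.0205 within batch A and with the batch block, 0.15 without batch B, 0.0333 with the ACTB covariate and 0.11 with quantile normalization, and ran from -0.216 to 0.048 without 1 sample, its other probe set from -0.0363 to 0.211. The second CDK6 probe set (-0.14) became 0.265 within batch A and with the batch block and 0.11 without batch B, and RB1 became -0.0457 as the mean of its probe sets. For the lost calls and turned signs the cause was not tested.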

Other observations

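CDKN2A itself was not matched to a probe set, but its neighbours in the RefSeq gene order (assembly UU_Cfam_GSD_1.0) were partly measured, 4 of 10 (5 on each side). They were chosen after the data had been seen. MTAP, an enzyme of methionine salvage that lies beside CDKN2A, was 5.91, 7.19, 7.02, 6.66 and 6.81 in metastatic replicates 1 to 5 and 7.05 to 7.76 in non-metastatic tumours. Its second probe set was 4.68 in metastatic replicate 1, against 6.35 to 8.02 in all other tumours. At each MTAP probe set only 1 of the 5 metastatic values lay above 7.16. The others were not told apart from probe sets without target, so the sizes that follow are uncertain. MTAP fell by 0.75 ± 0.19 (SE, limma adjusted p = 0.0413) at the first probe set. It differed by -1.10 at the second (limma adjusted p = 0.086). Within batch A these were -0.60 and -0.90, and neither passed (limma adjusted p = 0.212 and 0.33). The first call was also lost without batch B (-0.64, limma adjusted p = 0.218). It was lost in 9 of 13 fits without 1 sample. The call held in those without metastatic replicate 2 or 3 or non-metastatic replicate 2 or 7. Without metastatic replicate 1 the difference was -0.54. CDKN2B, on the other side, was also lowest in metastatic replicate 1, at 5.32, but metastatic replicate 3 was close to it at 5.38, and all CDKN2B values lay below 7.16. The other 2 measured neighbours went the opposite way. DMRTA1 (6.08, with all its values below 7.16) and ELAVL2 (10.36) were highest of the 13 tumours in metastatic replicate 1. That tumour was thus lowest for 2 of 4 neighbours and highest for the other 2. How many of all probe sets were lowest in it was not counted, so the 2 of 4 has no background. Copy number was not measured.

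Around CDK4, 9 of 10 neighbouring genes had a probe set. In non-metastatic replicate 1, the tumour with the highest CDK4 value, OS9 (11.30) and MARCHF9 (8.30) were likewise the highest of the 13 tumours, and the other 7 were not. OS9 was close to it in non-metastatic replicate 7 (11.16), and MARCHF9 in metastatic replicate 5 (8.20). OS9 has 5 probe sets, of which only that of highest mean was read. How many of all probe sets were highest in non-metastatic replicate 1, an array of batch B, was not counted. Copy number was not measured here either.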
